A study of Mus musculus with 16 samples.

Results

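CCR4-NOT is the main deadenylase of the cytoplasm, the complex that shortens the poly(A) tail of messenger RNA. Its subunits were followed through stomach tissue of female C57BL/6 mice, 8 weeks old, that carry or lack an altered tristetraprolin (TTP) gene. In group names, WT is wild type and TTP the altered gene. Condition A is gastric inflammation induced by adrenalectomy, and condition S is described below. The 10 genes considered, Cnot1, Cnot2, Cnot3, Cnot4, Cnot6, Cnot6l, Cnot7, Cnot8, Cnot10 and Cnot11, were chosen by symbol as known subunits. The rule uses no measured value, although earlier results of these data were known when it was set. All 10 are among the 24964 gene symbols of the count table, and all 10 are among the 15385 genes with enough reads to be tested. With all 16 libraries, 0 of the 10 subunits passed the test's threshold in each of the 5 comparisons of genotype and condition, while the share of all genes that passed ran from 0.0325 to 18.8% by comparison. Leaving out 1 library, WT-A 1, brought 6 subunits past it in WT-A against WT-S, where 32.4% of all genes passed. In TTP-A against WT-A, 3 subunits and 20.8% of all genes then passed, and in the interaction of genotype and condition 0 subunits did. In 2 of the 16 libraries, the transcripts of 3 of the 4 catalytic subunits lay at a log2 of -1.75 to -0.905 from their median in the others. The genes in the lowest bin of GC content, to which these 3 belong, had a median of -0.819 in the same libraries.

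In the complex, the large scaffold Cnot1 carries the other subunits. Catalysis comes from 2 kinds of nuclease, each present as a pair of paralogs that exclude each other from a given complex: Cnot6 or Cnot6l, and Cnot7 or Cnot8. Cnot2 and Cnot3 form the NOT module, Cnot10 and Cnot11 bind the other end of the scaffold, and Cnot4 is a ubiquitin ligase that is only loosely held in mammals. TTP, encoded by Zfp36, recognises AU-rich elements in the 3′ untranslated region (UTR) of inflammatory transcripts and brings them to Cnot1, after which the tail is shortened and the transcript decays. TTP also acts on its own messenger RNA in this way. The TTPΔARE allele lacks an AU-rich element of the Zfp36 transcript.

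The TTP recognition motif is the nonamer TTATTTATT, written as DNA. Among the annotated 3′ UTRs of the 10 subunits it was present in that of Cnot6l alone, as 1 copy that starts at base 6001 of 6847. The site is shown because no other subunit had the full nonamer in its annotated 3′ UTR. The shorter core ATTTA, which the nonamer contains, was found on the transcribed strand of 9 of the 10 3′ UTRs, from 28 copies in Cnot6l and 13 in Cnot6 to 0 in Cnot10, and in 68.5% of all tested genes with an annotated 3′ UTR. It is set beside the copy in the reference Zfp36 transcript, which starts at base 589 of a 3′ UTR of 774. Both are reference sequences read on the minus strand of GRCm38 (mm10) with 10 bases on each side and the nonamer in capitals, and which bases the allele lacks is not given in the sources used here.
Cnot6l, chr5:96071161-96071189: agggaagagaTTATTTATTtttgtttcct
Zfp36, chr7:28376951-28376979: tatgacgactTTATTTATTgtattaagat
Of all 14512 tested genes with an annotated 3′ UTR, 7.78% held the nonamer on the transcribed strand. Among the 363 genes whose 3′ UTR is within 20% of the length of that of Cnot6l, 24% held it. A match of letters is a description of the sequence and not a measured site.

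Because the catalytic subunits are paralogs, the start of each coding sequence is shown to let a reader see how far apart the reads of a pair are. The 120 bases from the start codon are printed, each spliced over 2 exons, with the bases that differ from the partner in capitals. Cnot6 and Cnot6l lie on the minus strand (chr11:49689344-49702652 and chr5:96131238-96134122), and 32 of the 120 bases differ (73.3% identical).
Cnot6: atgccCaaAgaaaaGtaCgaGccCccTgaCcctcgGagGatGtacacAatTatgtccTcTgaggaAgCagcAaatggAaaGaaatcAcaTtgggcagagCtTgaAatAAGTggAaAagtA
Cnot6l: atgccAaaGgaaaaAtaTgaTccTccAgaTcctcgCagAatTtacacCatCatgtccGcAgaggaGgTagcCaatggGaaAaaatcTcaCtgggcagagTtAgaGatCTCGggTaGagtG
Cnot7 lies on the minus strand (chr8:40507646-40510131) and Cnot8 on the plus strand (chr11:58109650-58111262), and 38 of the 120 bases differ (68.3% identical).
Cnot7: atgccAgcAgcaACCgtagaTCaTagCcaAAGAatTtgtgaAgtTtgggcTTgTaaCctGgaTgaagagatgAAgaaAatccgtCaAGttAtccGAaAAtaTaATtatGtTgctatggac
Cnot8: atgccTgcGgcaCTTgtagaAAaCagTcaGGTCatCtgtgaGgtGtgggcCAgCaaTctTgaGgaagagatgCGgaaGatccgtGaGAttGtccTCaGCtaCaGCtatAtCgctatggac
Over the longest transcript of each gene, no stretch of 50 bases was shared within either pair.

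Female mice 8 weeks old gave the RNA, each library from a corpus biopsy 4 mm wide that was taken along the lesser curvature. The 4 groups of 4 libraries were wild-type (WT) C57BL/6 mice and TTPΔARE mice, given as congenic C57BL/6, each in the conditions A and S. In condition A (WT-A and TTP-A) gastric inflammation had been induced by adrenalectomy, the removal of the adrenal glands and so of most glucocorticoid. Condition S (WT-S and TTP-S) is labelled with spasmolytic polypeptide-expressing metaplasia (SPEM), a mucous lineage of injured corpus glands, and whether these mice were operated on is not stated. The labels do not say that the libraries came from separate animals, so a p-value measures the spread between these libraries, which may be technical. The allele is carried by the whole animal and the biopsy holds many cell types, so fewer cells of a type and less RNA per cell cannot be told apart.

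Libraries held 17453930 to 25849472 counts. The targeted gene followed the labels: Zfp36 was at 55.1 to 88.6 CPM, the reads of a gene scaled to a common library size, in the 8 WT libraries and at 110.5 to 131 CPM in the 8 TTPΔARE libraries. Corpus markers were abundant in all 16 libraries, among them Atp4a of parietal cells (9840 to 14300 CPM) and Pgc of chief cells (46400 to 145000 CPM), while Lipf of the chief cell list was at 0 throughout. The 5 leukocyte markers summed to 27.7 to 34.8 CPM in the S groups and to 35.8 to 55.7 CPM in the A groups, with none at 0 throughout. The 6 markers of forestomach squamous epithelium summed to 39.9 to 683 CPM in WT-A and to 1.53 to 275 CPM in the other groups. The 4 surface mucous markers summed to 36400 to 51600 CPM in WT-A, against 52700 to 60600 CPM in WT-S, and to 29800 to 52900 CPM in TTP-A, against 55800 to 60100 CPM in TTP-S. Those of smooth muscle summed to 6160 to 7500 CPM in WT-A and 5440 to 6050 CPM in WT-S. In TTPΔARE mice the 3 mucous neck markers summed to 1240 to 3810 CPM in TTP-A and 805 to 1080 CPM in TTP-S, and the 4 adipocyte markers to 101 to 152 and 195 to 312 CPM. The part of these cells in the values below was not tested. WT-A 3 and WT-A 4 stood apart from the other libraries: the higher the GC content of a transcript, the higher its level relative to the other libraries (Spearman rho 0.731 and 0.757 across 11493 genes, which are not independent replicates), against a rho of -0.216 to 0.244 in the other 14. The calls of each comparison are therefore given in all 16 libraries and in the 14 without these, where WT-A has 2.

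Subunit transcripts were of moderate abundance. Levels between genes were compared as CPM per kilobase of annotated exon, merged over all transcripts of a gene, as means of the 14 libraries. Cnot8 was the highest at 17.4 CPM per kb, with 15.8 to 19.8 over the libraries. Cnot2 followed at 14.8, then the scaffold Cnot1 at 13.2 and Cnot6 at 13.1. Cnot3 stood at 9.67 CPM per kb, Cnot11 at 9.61 and Cnot7 at 8.34. The lowest were Cnot10 at 6.95, Cnot6l at 5.44 and Cnot4 at 4.09 CPM per kb. Cnot8 was above 84.1% of the 15211 genes with a length and Cnot4 above 49.9%.

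Some neighbours in this order were separated and others were not. The ranges of Cnot8 and Cnot2 did not overlap over the 14 libraries, nor did those of Cnot6 and Cnot3, of Cnot7 and Cnot10, of Cnot10 and Cnot6l, or of Cnot6l and Cnot4. Cnot1 exceeded Cnot6 in 9 of 14 libraries and Cnot3 exceeded Cnot11 in 7 of 14, so neither of these pairs differed beyond its spread. Cnot11 exceeded Cnot7 in 13 of 14, and Cnot2 exceeded Cnot1 in all 14 although their ranges overlap. Within the catalytic pairs the level per kilobase was higher for Cnot6 than for Cnot6l and higher for Cnot8 than for Cnot7 in each of the 14. These levels and their order depend on the exons counted, which the deposited table does not list. The merged exons came to 17169 bases for Cnot1, 7129 for Cnot3 and 2636 for Cnot8. Their longest transcripts have 8390, 2822 and 2099 bases. Scaled to the longest transcripts instead, Cnot1 and Cnot3 would stand above Cnot8, and Cnot7 above Cnot6.

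The subunits were steady from library to library outside the pair that stood apart. Over 14 libraries the coefficient of variation (CV) of CPM ran from 3.53% for Cnot4 to 6.48% for Cnot8, with a median of 4.55%. The 4765 genes with a mean CPM in the same range (33.7 to 226) had a median of 6.25%. With all 16 libraries the CV rose to 25.2% for Cnot6l, 18.8% for Cnot7 and 17.4% for Cnot6, and the median of the 10 was 7.55% against 9.03% for the genes in range. Cnot1, Cnot8, Cnot10 and Cnot11 had nearly the same CV in both sets, as in Cnot10 with 6.15% and 5.87%.

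**Figure D1:**
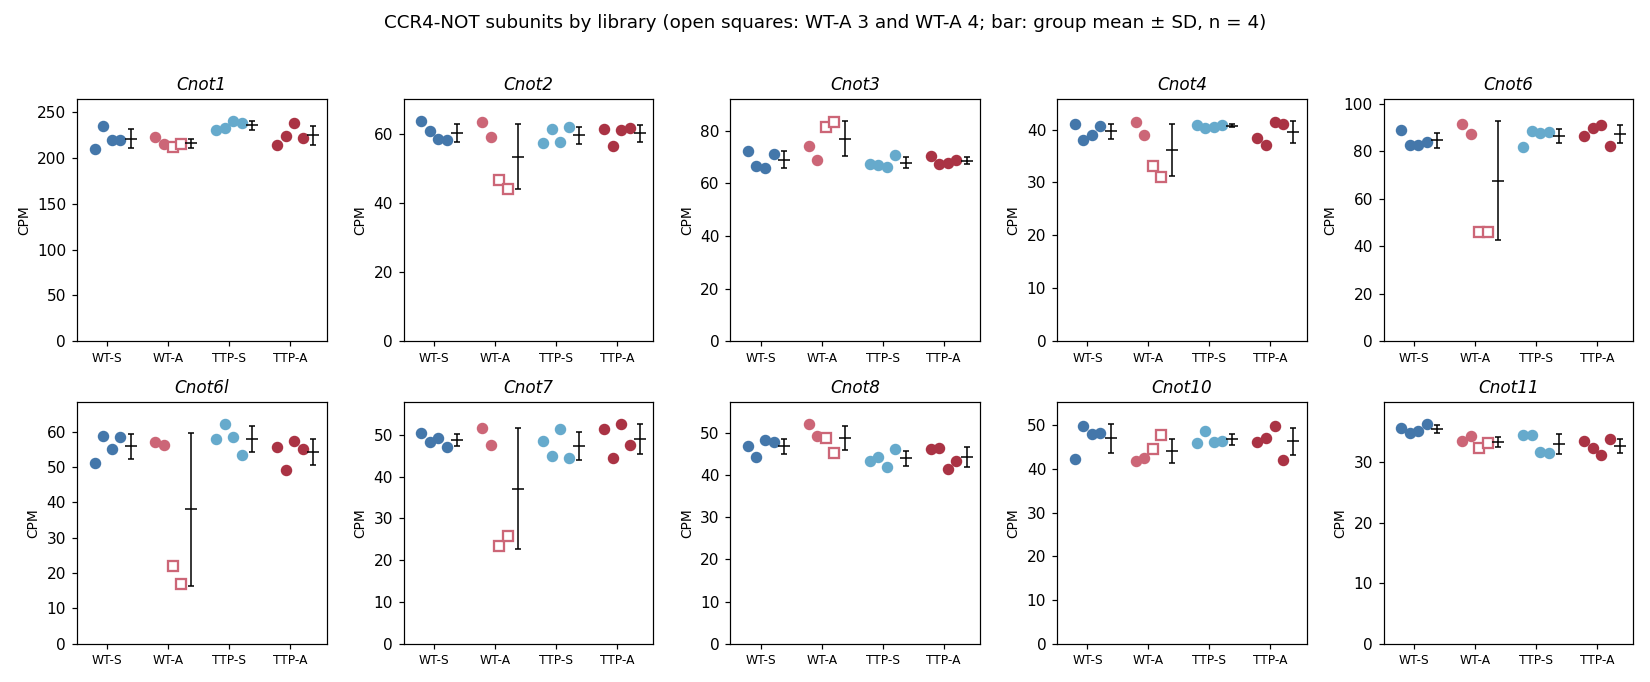
CPM (vertical axes, from 0) of each CCR4-NOT subunit in every library of the 4 groups, with the group mean and SD (n = 4) as a bar. WT-A 3 and WT-A 4 are open squares: in Cnot6, Cnot6l and Cnot7 they lie at 16.8 to 46.2 CPM, below all other libraries, and in Cnot3 at 81.5 and 83.4 CPM, above all others.

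Cnot6l, one of the CCR4-type nucleases, varied most over all 16 libraries. It stood at 57.0, 56.3, 21.9 and 16.8 CPM in the WT-A libraries, against 51.1, 58.7, 55.0 and 58.4 CPM in WT-S. The TTPΔARE mice had 57.9, 62.2, 58.3 and 53.3 CPM in TTP-S and 55.5, 49.0, 57.2 and 55.0 CPM in TTP-A. The first pair of WT-A libraries lay within the WT-S range and the second pair far below every other library.

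Its paralog Cnot6 behaved alike in WT-A, with 91.3, 87.3, 45.9 and 46.2 CPM. The other 12 libraries of Cnot6 lay between 81.9 and 90.9 CPM. Cnot7, a CAF1-type nuclease, stood at 51.7, 47.6, 23.5 and 25.8 CPM in WT-A and at 44.4 to 52.5 CPM in the other groups. Its paralog Cnot8 did not share the drop: WT-A had 52.2, 49.3, 48.8 and 45.3 CPM, and the other groups had 41.5 to 48.4 CPM. Thus 3 of the 4 nucleases were low in WT-A 3 and WT-A 4 and Cnot8 was not.

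Among the non-catalytic subunits the same libraries were lower in Cnot2 and Cnot4 and higher in Cnot3. Cnot2, of the NOT module, stood at 63.6, 59.0, 46.7 and 44.1 CPM in WT-A and at 56.6 to 63.7 CPM elsewhere. Cnot4, the ubiquitin ligase, stood at 41.4, 39.0, 33.1 and 31.0 CPM in WT-A and at 37.1 to 41.4 CPM elsewhere. Cnot3, the partner of Cnot2, stood at 74.3, 69.0, 81.5 and 83.4 CPM in WT-A and at 65.8 to 72.2 CPM elsewhere. The scaffold Cnot1 (209.6 to 240.4 CPM over all 16), Cnot10 (41.7 to 49.7 CPM) and Cnot11 (31.2 to 36.3 CPM) did not set these libraries apart.

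The order of the subunits in WT-A 3 and WT-A 4 was close to their order by GC content. Cnot6l, with the lowest GC content of the 10 in its longest transcript (37.6%), deviated from the median of the other 14 libraries by a log2 of -1.37 and -1.75, a mean that is 66.1% lower. Cnot7 (40.7% GC) deviated by -1.04 and -0.905 and Cnot6 (39.8% GC) by -0.928 and -0.92. Cnot3, with the highest GC content (57.3%), deviated by 0.253 and 0.287. Across the 10 subunits the mean deviation had a Pearson r of 0.905 and a Spearman rho of 0.939 with GC content, -0.516 and -0.564 with transcript length, and -0.83 and -0.6 with 3′ UTR length. These describe 10 points that share the same libraries.

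Over all genes, the median deviation in these libraries rose from bin to bin of GC content, with a wide spread inside each bin. In the lowest of 10 bins of GC content (32.9 to 42.1%), the mean deviation of the 2 libraries had a median of -0.819, with -1.45 and -0.293 as the 10th and 90th percentiles. Cnot6 (-0.924) and Cnot7 (-0.972) lay inside that span and Cnot6l (-1.56) just below it. Cnot3 (0.27) lay near the median of its own bin (0.236), and the other 6 subunits lay between the 10th and 90th percentiles of theirs. In no other library did the deviation of a subunit exceed 0.208 in size, reached in Cnot6l.

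**Figure D2:**
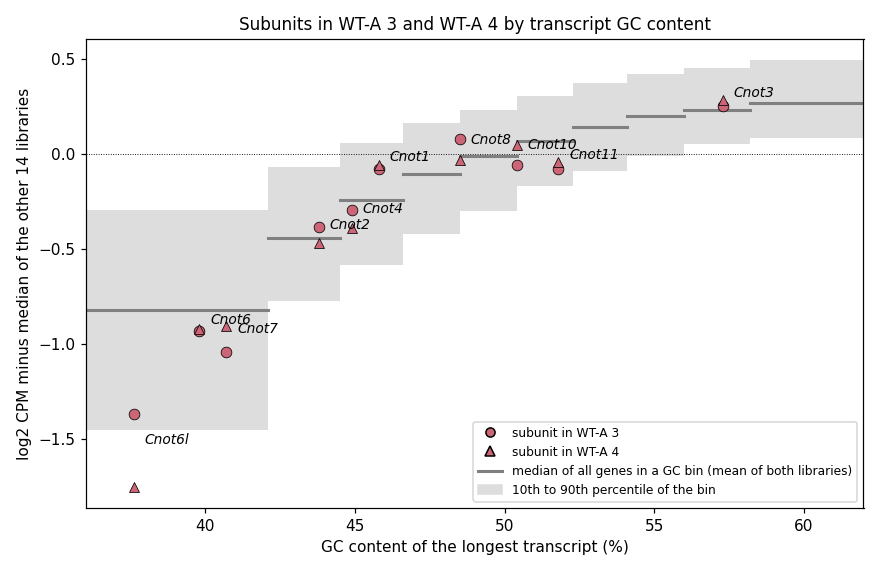
Deviation of each subunit in WT-A 3 (circles) and WT-A 4 (triangles) from the median of the other 14 libraries, in log2 CPM, against the GC content of its longest transcript in percent. Grey lines and bands give the median and the 10th to 90th percentile of all genes in 10 bins of GC content, as the mean of both libraries and with the outer bins drawn only as far as the axis: the subunits run from -1.75 for Cnot6l to 0.287 for Cnot3 along the same rise.

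The conditions were compared in WT mice as WT-A against WT-S, a difference that cannot be assigned to adrenalectomy alone because the state of the S mice is not given. None of the 10 subunits was called (adjusted p of edgeR's quasi-likelihood test under 0.05), while 18.8% of the 15385 genes tested were. At an unadjusted p under 0.05, 1 subunit (Cnot3) and 36.5% of all genes passed, and by DESeq2 0 subunits and 22.9% of the genes were called. The largest differences were in 3 of the 4 catalytic subunits: Cnot6l had a log2 of -0.55 (95% interval -1.14 to 0.041, adjusted p = 0.162), Cnot7 -0.39 (-0.79 to 0.010, adjusted p = 0.146) and Cnot6 -0.32 (-0.69 to 0.050, adjusted p = 0.192). Cnot3 had 0.16 (0.033 to 0.28, adjusted p = 0.069). Cnot2 stood at -0.18, Cnot4 at -0.13 and Cnot8, Cnot1 and Cnot10 at 0.062, -0.032 and -0.091. Cnot11 had -0.092 (-0.20 to 0.014, adjusted p = 0.19) and was the only subunit whose groups did not overlap (32.2 to 34.3 CPM in WT-A, 34.8 to 36.3 CPM in WT-S), as was so for 17.7% of all genes tested.

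The differences of Cnot2, Cnot4, Cnot6, Cnot6l and Cnot7 changed sign without WT-A 3 and WT-A 4, while those of Cnot8 and Cnot10 grew and Cnot11 kept its sign. In the 14 libraries 0 subunits were called against 10.5% of all genes, and the log2 difference was 0.025 for Cnot6l (-0.13 to 0.18), 0.029 for Cnot7 (-0.13 to 0.18) and 0.081 for Cnot6 (-0.033 to 0.20). Over all 10 subunits the 95% intervals of the 14-library fit lay between -0.30 (Cnot10) and 0.25 (Cnot8). Without WT-A 1, which leaves WT-A mostly to the libraries that stand apart, Cnot2, Cnot3, Cnot4, Cnot6, Cnot6l and Cnot7 were called, 6 of 10 against 32.4% of all genes, with Cnot6l at -0.81 (adjusted p = 0.035). Without WT-A 2, Cnot3 (0.21, adjusted p = 0.0181) and Cnot6l (-0.80, adjusted p = 0.0491) were called, against 23% of all genes. With offsets for GC content, an alternative chosen after the data were seen, Cnot6l stood at -0.11, Cnot7 at -0.059 and Cnot6 at 0.072, with 0 subunits called. The share of all genes called with these offsets was not counted. The adjusted p of Cnot6l over all its alternatives ran from 0.035 to 0.864.

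Over the list, the median log2 difference was -0.112 in 16 libraries, with 2 of 10 subunits higher, and 0.026 in 14, with 7 of 10 higher. The median of all genes was 0.0094 and 0.006. The median size of the difference was 0.146 in 16 libraries against 0.19 for all genes, and 0.044 against 0.139 in the 14. In the 14, Cnot10 had the largest difference at -0.16 (-0.30 to -0.0066, adjusted p = 0.166, with 0.127 to 0.585 over its alternatives), with 41.7 and 42.6 CPM in WT-A 1 and WT-A 2 and 42.2 to 49.7 CPM in WT-S. Cnot8 followed at 0.12 (-0.0083 to 0.25, adjusted p = 0.215, with 0.187 to 0.729 over its alternatives), and its 2 WT-A libraries (52.2 and 49.3 CPM) lay above the WT-S range of 44.3 to 48.4 CPM. With 2 libraries in WT-A, 33% of all genes did not overlap.

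**Figure D3:**
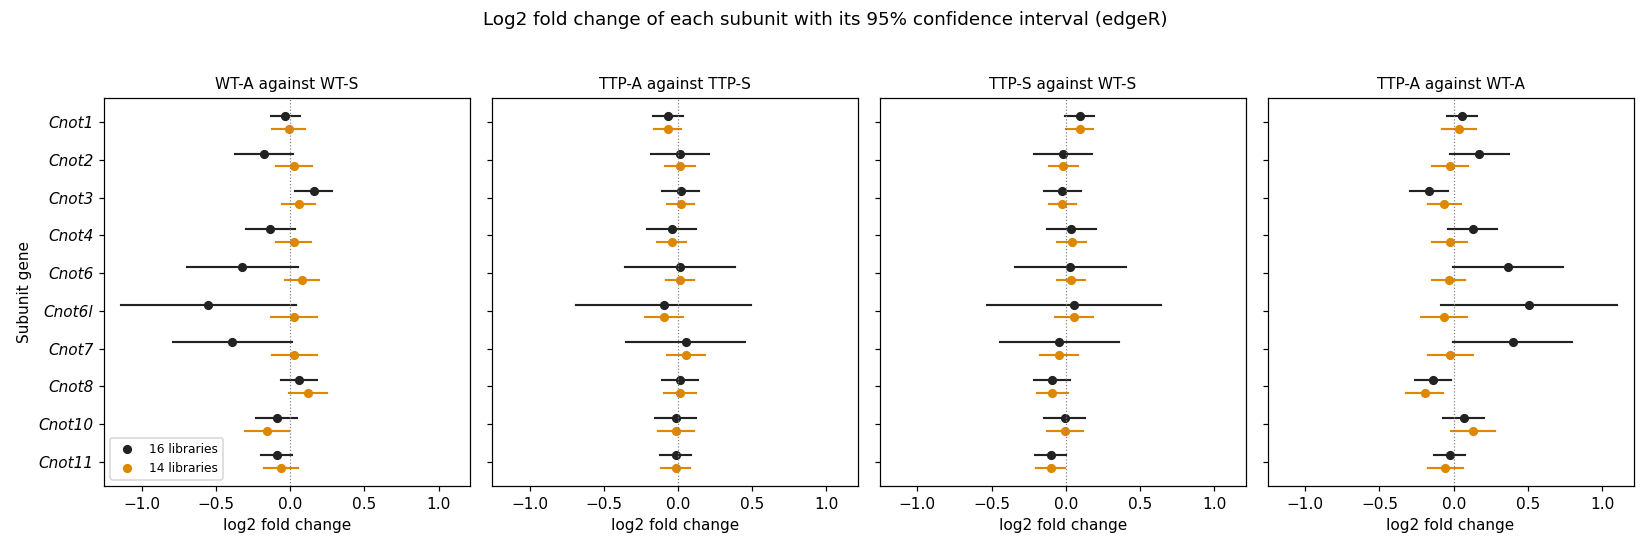
Log2 fold change of each subunit (horizontal axes) with its 95% interval from edgeR in the 4 pairwise comparisons, in all 16 libraries (black) and in the 14 without WT-A 3 and WT-A 4 (orange). In both comparisons that contain WT-A the black values of Cnot6, Cnot6l and Cnot7 have wide intervals that include 0, with WT-A on the low side, and the orange values of these genes lie between -0.067 and 0.081.

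The same condition in TTPΔARE mice (TTP-A against TTP-S) gave the smallest differences of the study's pairwise comparisons by their median size. No subunit was called, against 2.9% of all genes, and 0 subunits against 15.9% of the genes had an unadjusted p under 0.05. DESeq2 called 0 subunits and 5.84% of the genes, and the 14-library fit 0 subunits and 6.33%. This comparison contains no WT-A library, and the others enter only through the shared estimate of the spread. The log2 differences ran from -0.096 for Cnot6l to 0.051 for Cnot7, with a median size of 0.0161 against 0.104 for all genes, and 5 of 10 were higher. In the 14-library fit the interval of Cnot6l was -0.22 to 0.032, the widest downward of the 10, and that of Cnot7 -0.077 to 0.18, the widest upward. A p that misses the threshold does not show that the groups are alike, and these bounds correspond to fold changes of 0.856 and 1.13. In the 16-library fit, whose spread includes WT-A 3 and WT-A 4, the bounds were wider, at -0.68 to 0.49 for Cnot6l (fold changes of 0.622 and 1.41) and -0.35 to 0.45 for Cnot7.

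Genotype alone was compared in condition S (TTP-S against WT-S), which asks whether the TTPΔARE allele goes with another supply of the deadenylase. No subunit was called, against 0.0325% of all genes (5 genes, Zfp36 among them at a log2 of 0.98, SE 0.097, adjusted p = 0.00044). At an unadjusted p under 0.05, 0 subunits and 7.49% of the genes passed, DESeq2 called 0 subunits and 0.637% of the genes, and the 14-library fit 0 subunits and 0.422%. Cnot11 had the largest difference, -0.10 (-0.21 to 0.0021, adjusted p = 0.681), with 34.4, 34.4, 31.7 and 31.5 CPM in TTP-S and 35.5, 34.8, 35.2 and 36.3 CPM in WT-S. Its groups did not overlap, although the highest TTP-S library and the lowest WT-S library were 34.4 and 34.8 CPM. No overlap was found for 6.74% of all genes in this comparison, which shares its WT-S libraries with WT-A against WT-S. The scaffold Cnot1 stood at 0.093 (-0.0066 to 0.19, adjusted p = 0.696), with 230.8 to 240.4 CPM in TTP-S and 209.6 to 234.6 CPM in WT-S. Cnot6l, the subunit with the nonamer, stood at 0.054 (-0.53 to 0.64; 14 libraries 0.055, -0.073 to 0.18). The median size of the difference was 0.0409 against 0.0816 for all genes.

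In condition A the genotypes (TTP-A against WT-A) share the WT-A libraries with the first comparison, so the same libraries enter with the opposite sign. No subunit was called in 16 libraries, against 5.17% of all genes, nor in the 14, against 1.81%. Cnot3 and Cnot8 had an unadjusted p under 0.05, as had 27.5% of the genes, and DESeq2 called 0 subunits and 11.5% of the genes. Cnot6l stood at a log2 of 0.51 (-0.083 to 1.1, adjusted p = 0.247), Cnot7 at 0.40 (adjusted p = 0.185) and Cnot6 at 0.37 (adjusted p = 0.186), and in the 14 libraries at -0.067, -0.022 and -0.034. Without WT-A 1, Cnot2 (0.27), Cnot6 (0.55) and Cnot7 (0.60) were called, 3 of 10 against 20.8% of all genes (adjusted p = 0.0331, 0.0303 and 0.0275). Without WT-A 2, Cnot3 was called (-0.22, adjusted p = 0.0303), against 10.4% of all genes. The median size of the difference was 0.153 against 0.161 for all genes in 16 libraries, and 0.0459 against 0.12 in the 14.

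Cnot8 was the subunit whose genotype difference in condition A was largest once WT-A 3 and WT-A 4 were left out. TTP-A had 46.1, 46.5, 41.5 and 43.3 CPM and WT-A 1 and WT-A 2 had 52.2 and 49.3 CPM, so the groups did not overlap, as in 28.4% of all genes. The log2 difference was -0.20 (-0.32 to -0.069, adjusted p = 0.0936), a level 0.873 times that of WT-A. With WT-A 3 and WT-A 4, at 48.8 and 45.3 CPM, it was -0.14 (-0.26 to -0.019, adjusted p = 0.133). The adjusted p over all its alternatives ran from 0.0635 to 0.317. In condition S the same gene stood at -0.092 (adjusted p = 0.812) between the genotypes, and the difference between these differences was -0.048 (-0.22 to 0.12, adjusted p = 0.787) in 16 libraries and -0.11 (-0.27 to 0.060, adjusted p = 0.61) in the 14.

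Whether the response to condition A differed between the genotypes was tested with the interaction. No subunit was called, against 0.0585% of all genes, and none in the 14 libraries, against 0.286%. The share of genes with an unadjusted p under 0.05 was 15.2%, and DESeq2 called 2.11% of those it tested, with 0 subunits in both. Cnot6l had an interaction of 0.45 (-0.38 to 1.29, adjusted p = 0.571), Cnot7 0.44 (adjusted p = 0.42) and Cnot6 0.34 (adjusted p = 0.502). Leaving out 1 library gave 0.21 (without WT-A 4) to 0.71 (without WT-A 1) for Cnot6l, 0.27 (without WT-A 3) to 0.64 (without WT-A 1) for Cnot7 and 0.19 (without WT-A 3) to 0.51 (without WT-A 1) for Cnot6. In the 14 libraries these were -0.12 (-0.32 to 0.079), 0.022 (-0.18 to 0.22) and -0.066 (-0.21 to 0.081).

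The balance between paralogs was examined as a ratio of counts within a library, which no scaling between libraries alters. Cnot6l to Cnot6 was 0.527 ± 0.133 in WT-A and 0.661 ± 0.0622 in WT-S, and in TTPΔARE mice 0.621 ± 0.052 (TTP-A) and 0.671 ± 0.0472 (TTP-S), with the SD over 4 libraries. In WT-A the libraries had ratios of 0.624, 0.645, 0.477 and 0.363. Cnot8 to Cnot7 was 1.47 ± 0.533 in WT-A and 0.961 ± 0.0436 in WT-S, and 0.911 ± 0.104 (TTP-A) and 0.935 ± 0.099 (TTP-S) in the other genotype, again with the SD over 4. Here the WT-A libraries had 1.01, 1.04, 2.08 and 1.75, so that WT-A 3 and WT-A 4 alone had far more reads of Cnot8 than of Cnot7. Outside these libraries the Cnot8 to Cnot7 ratio lay between 0.791 and 1.04.

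None of the 4 tests of these ratios passed after adjustment. Condition A against S, permuted within genotype, gave a mean log2 difference of -0.23 for Cnot6l to Cnot6 (exact two-sided permutation p = 0.0416, adjusted p = 0.0833) and 0.25 for Cnot8 to Cnot7 (exact permutation p = 0.183, adjusted p = 0.222). TTPΔARE against WT, permuted within condition, gave 0.15 (exact permutation p = 0.222, adjusted p = 0.222) and -0.33 (exact permutation p = 0.0388, adjusted p = 0.0833). These means join unlike parts. Cnot8 to Cnot7 differed between genotypes by -0.046 in condition S and -0.62 in condition A, and between conditions by 0.54 in WT and -0.037 in TTPΔARE mice. For Cnot6l to Cnot6 the same parts were 0.023 and 0.27, and -0.36 and -0.11. In the 14 libraries the 4 mean differences were -0.082, 0.027, -0.0056 and -0.11, with exact permutation p = 0.227, 0.672, 0.944 and 0.172. Without TTP-S 4, Cnot6l to Cnot6 passed between the conditions (-0.26) and Cnot8 to Cnot7 between the genotypes (-0.36), both with an exact permutation p adjusted to 0.0416. Over all alternatives the adjusted p ran from 0.0416 to 0.453 for both of these results.

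**Figure D4:**
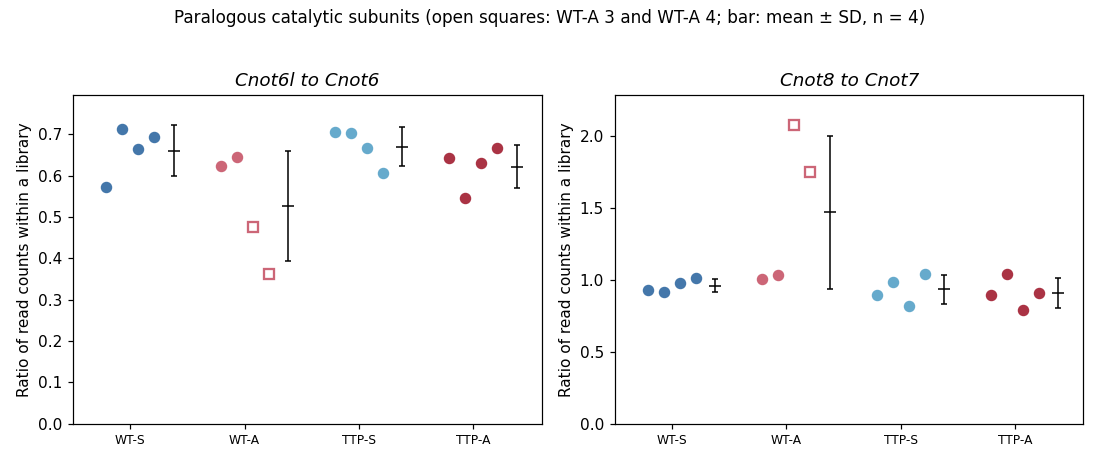
Ratio of read counts within each library (vertical axes, from 0) for the paralogous nucleases, with the group mean and SD (n = 4) as a bar. In WT-A 3 and WT-A 4 (open squares) Cnot6l to Cnot6 lies at 0.477 and 0.363 and Cnot8 to Cnot7 at 2.08 and 1.75, outside the range of all other libraries.

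How far the members of the complex moved together from library to library was described with the deviations of log2 CPM from the group means. Over the 14 libraries 26 of 45 pairs of subunits had a positive Pearson r, with a median of 0.062. The extremes were 0.658 for Cnot1 with Cnot10 and -0.666 for Cnot1 with Cnot11. Over 16 libraries the median was 0.223, and the 3 nucleases that were low in WT-A 3 and WT-A 4 led, at 0.951 for Cnot6 with Cnot7, 0.944 for Cnot6 with Cnot6l and 0.93 for Cnot6l with Cnot7. Those 3 values were 0.129, -0.295 and 0.304 in the 14 libraries. All points share library depth and scaling, so these are descriptions.

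The genes most like the subunits over 16 libraries were sought among 9483 genes of at least 10 CPM, by Pearson r to the mean standardised log2 CPM of the 10. They were Rabgap1l (0.978), Zfp655 (0.973), Ddx6 (0.971), Smc5 (0.971) and Vps4b (0.971). Their r over the 14 libraries was 0.639, 0.668, 0.551, 0.463 and 0.693. Their GC content ran from 38 to 43.4%, against a median of 50.4% for the genes searched.

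Around the core complex, the pathway was covered by 5 lists of genes. Of the 16 tested proteins that associate with CCR4-NOT or recruit it, 2 were called in WT-A against WT-S, where 18.8% of all genes were called. Tob1, an antiproliferative adaptor that binds Cnot7 and Cnot8, fell by 0.69 (SE 0.21, adjusted p = 0.0347), and Btg2, of the same family, rose by 0.32 (SE 0.10, adjusted p = 0.0431). In the 14 libraries they stood at -0.71 (adjusted p = 0.0835) and 0.29 (adjusted p = 0.151) and 0 of the 16 were called, against 10.5% of all genes. With all libraries, 0 of the 16 were called in the other 4 comparisons, where 0.0325 to 5.17% of all genes were. In TTP-A against TTP-S in the 14, 1 fell, Tnrc6b, a scaffold of microRNA silencing (-0.22, SE 0.055, adjusted p = 0.032), with 6.33% of all genes called. Cnot9, a further core subunit in this list, stood at 24.3 to 28.9 CPM and was not called in any comparison.

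In the lists of other deadenylases, decapping and the exosome, the counts are to be read against the 18.8% of all genes called in WT-A against WT-S. Of 11 other deadenylases and poly(A)-binding proteins, 1 was called in WT-A against WT-S, Noct, a rhythmic deadenylase-like enzyme (-0.29, SE 0.085, adjusted p = 0.0271). In the 14 libraries it stood at -0.25 (adjusted p = 0.141), and Pabpc1, the main cytoplasmic poly(A)-binding protein, rose by 0.23 (SE 0.054, adjusted p = 0.0175; 16 libraries 0.055). Of 19 genes of decapping and decay from the 5′ end, 1 rose and 3 fell in WT-A against WT-S: Dcps, the scavenger decapping enzyme (0.45, adjusted p = 0.00445), and Lsm6 (-0.32), the exonuclease Xrn1 (-0.31) and the helicase Ddx6 (-0.34), with adjusted p of 0.0219, 0.0459 and 0.0474. Dcps alone was called in the 14 libraries (0.41, adjusted p = 0.0244), against 10.5% of all genes, with Ddx6 at -0.078, Xrn1 at -0.084 and Lsm6 at -0.24. In TTP-A against TTP-S 0 of the 19 were called, against 2.9% of all genes, and 1, Lsm3, in the 14 (0.28, adjusted p = 0.0421), against 6.33%. Of 15 genes of the exosome and the Ski complex, Exosc8 rose (0.32, adjusted p = 0.0243) and Wdr61 fell (-0.18, adjusted p = 0.0231) in WT-A against WT-S, and Wdr61 was higher in TTP-A than in WT-A (0.17, adjusted p = 0.0493), where 5.17% of all genes were called. None of the 15 was called in the 14 libraries (10.5% of all genes in WT-A against WT-S and 1.81% in TTP-A against WT-A), where Exosc8 stood at 0.29 and Wdr61 at -0.15 in WT-A against WT-S (adjusted p = 0.0756 and 0.0788).

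Among the binders of AU-rich elements, Zfp36l2 and Zfp36 were called in both sets of libraries. Zfp36l2, a paralog of TTP that also recruits CCR4-NOT, was higher in condition A in WT mice (means of 194.6 CPM in WT-A and 141.2 CPM in WT-S, with no overlap of the libraries) by a log2 of 0.46 (SE 0.080, adjusted p = 0.00266; 14 libraries 0.50, adjusted p = 0.00604). In TTPΔARE mice it was higher by 0.44 (SE 0.080, adjusted p = 0.0117; 14 libraries adjusted p = 0.00648). Khsrp rose in WT-A against WT-S (0.19, adjusted p = 0.0193) and stood at 0.14 in the 14 (adjusted p = 0.097), where its groups did not overlap either. Zfp36 was higher in TTP-A than in WT-A by 0.77 (SE 0.097, adjusted p = 0.00159; 14 libraries 0.95, adjusted p = 0.000152). The other 5 of the 8 binders, Zfp36l1, Elavl1, Hnrnpd, Tia1 and Tial1, were not called in any comparison in either set. Of the 8, 2 were called in WT-A against WT-S (18.8% of all genes) and 1 each in TTP-A against TTP-S (2.9%), TTP-S against WT-S (0.0325%) and TTP-A against WT-A (5.17%). Without WT-A 3 and WT-A 4, 1 was called in each, against 10.5, 6.33, 0.422 and 1.81% of all genes. Between the genotypes, in either set, the only binder called was Zfp36, the altered gene itself.

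The positions of the subunit genes bear on what was counted. On GRCm38, Cnot1 lies at chr8:95719451-95807464 (minus strand), Cnot2 at chr10:116485161-116581511 (minus), Cnot3 at chr7:3645268-3661109 (plus), Cnot4 at chr6:35022065-35133724 (minus) and Cnot6 at chr11:49671503-49712723 (minus). Cnot6l lies at chr5:96070333-96164171 (minus), Cnot7 at chr8:40492540-40515847 (minus), Cnot8 at chr11:58104153-58118594 (plus), Cnot10 at chr9:114585878-114640184 (minus) and Cnot11 at chr1:39534992-39546889 (plus). Exons of Cnot3 share 433 bases with Leng1 on the other strand and 86 with Mir3572, in all 7.28% of its exon length. Cnot2 shares 232 bases with 5330438D12Rik, Cnot7 247 with Zdhhc2 and Cnot1 132 with 4930513N10Rik, all on the other strand. The strand setting of the counting is not given in the sources used here, so reads in these stretches cannot be assigned. Cnot6l has the longest annotated 3′ UTR of the 10 (6847 bases) and Cnot3 the shortest (283 bases).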

How the data were processed

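The authors deposited 1 table of whole-number read counts per gene symbol. Per the submitters' processing notes, the tools were STAR 2.7.0f, featureCounts of Subread 1.6.4 and DESeq2, with the build mm10. The annotation, the strand setting and any filter are not given in the sources used here. Groups and replicate numbers came from the sample titles, and 0 columns were left without a sample. No library repeated another of its group: for the 24 pairs of replicates a chi-square test of the counts gave 4.9 to 94.7 per degree of freedom.

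Counts were analysed in R 4.3.3. TMM scaling, the filter filterByExpr, a fit of 1 mean per group over 16 libraries and the quasi-likelihood test were those of edgeR 4.0.16, with Benjamini-Hochberg adjustment over the 15385 genes tested. Calls have an adjusted p under 0.05. Standard errors and 95% intervals were derived from each log2 value and its F statistic. CPM is relative to the TMM-scaled total. The fit without WT-A 3 and WT-A 4 kept the same genes. Ratios of paralogs were tested by exact permutation over 4900 relabellings (1050 in 14 libraries), with 4 tests adjusted together. The edgeR test was tried on simulated counts of 16 libraries, in TTP-A against TTP-S. Those counts had no library set apart by GC content, and the other procedures were not simulated.

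Coordinates, GC content, lengths and 3′ UTRs came from GENCODE M21 (GRCm38). Of the genes tested, 15211 (98.9%) had a GC content and a length, taken from the longest transcript. The check on GC content used genes with a mean log2 CPM over 2.

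Named genes were all 10 subunits, Zfp36, in each pathway list the called genes (at most the 4 with the smallest adjusted p per comparison), and the 5 genes most like the subunits. Cnot9 and the uncalled binders of AU-rich elements were named after their values were seen. The subunits, the lists and the 14 libraries were chosen with earlier results of these data known.

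Alternatives were DESeq2 1.42.0 (size factors and Wald test), no filter, at least 1 CPM in every library, a block for the replicate number, a fit limited to the groups in question, each library left out in turn, and, for the ratios, counts plus 0.5 and a linear scale. A loess correction for GC content (span 0.5), entered as offsets, was added after the data were seen.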

Additional observations from a re-analysis of the deposited data

Results flagged for a closer look

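In 52 groups of 4 libraries, 2 held a library whose gap to the nearest other, relative to the whole range of the group, exceeded 0.829. Chance flags about 1 in 20 groups. Cnot2 was at 56.58 CPM in TTP-A 2, and the other TTP-A libraries lay between 61.28 and 61.59 CPM (gap over range 0.938). Cnot6 was at 81.91 CPM in TTP-S 1, and the other TTP-S libraries lay between 87.6 and 88.36 CPM (gap over range 0.882). Both values lie near or within the span of the same gene in the other groups.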

How the results depend on the processing

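No subunit was called in any of the 5 comparisons in 16 or 14 libraries, with DESeq2 size factors or its Wald test, with either other filter, with GC offsets, or in a fit of only the groups compared (not run for the interaction, which uses all 4 groups). With the replicate number as a block, 0 subunits were called in each comparison. The numbers do not pair the libraries: same-numbered libraries deviated together with correlations of -0.423 to 0.331, and a library correlated best with its own number in 2, 1, 0 and 1 of 4 cases over the pairwise comparisons. Leaving out 1 library gave 0 to 6 called subunits in WT-A against WT-S and 0 to 3 in TTP-A against WT-A. The highest counts came without WT-A 1, where 32.4 and 20.8% of all genes were called. Shares of all genes were not counted with the block, DESeq2 size factors, other filters, GC offsets or fits of only the groups compared.

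In the 14 libraries 5 log2 values of WT-A against WT-S turned positive: Cnot2 0.027, Cnot4 0.024, Cnot6 0.081, Cnot6l 0.025 and Cnot7 0.029. In TTP-A against WT-A 5 turned negative: Cnot2 -0.028, Cnot4 -0.028, Cnot6 -0.034, Cnot6l -0.067 and Cnot7 -0.022. In the interaction 4 turned: Cnot2 -0.012, Cnot4 -0.067, Cnot6 -0.066 and Cnot6l -0.12. The genotype difference of the Cnot6l to Cnot6 ratio turned to -0.0056.

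With GC offsets, chosen after the data were seen, WT-A against WT-S turned in Cnot1 (0.11), Cnot2 (0.037), Cnot4 (0.031) and Cnot6 (0.072). TTP-A against TTP-S turned in Cnot3 (-0.0087). TTP-A against WT-A turned in Cnot1 (-0.070), Cnot2 (-0.022), Cnot4 (-0.022) and Cnot11 (0.020), and the interaction in Cnot2 (-0.0087), Cnot4 (-0.061) and Cnot6 (-0.036). None of these values passed the threshold in either fit, and the cause of the turns was not tested.

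Leaving out each library in turn moved small values across 0. In TTP-A against TTP-S the range was -0.0048 to 0.044 for Cnot2, -0.011 to 0.042 for Cnot6, -0.010 to 0.044 for Cnot8, -0.051 to 0.028 for Cnot10 and -0.036 to 0.0067 for Cnot11. In TTP-S against WT-S it was -0.036 to 0.0099 for Cnot2 and -0.057 to 0.019 for Cnot10. The condition difference of the Cnot6l to Cnot6 ratio ranged from -0.29 to -0.15, and the genotype difference of the Cnot8 to Cnot7 ratio from -0.41 to -0.24. The genotype difference of Cnot6l to Cnot6 ranged from 0.063 (without WT-A 4) to 0.20 (without WT-A 2), and the condition difference of Cnot8 to Cnot7 from 0.16 (without WT-A 3) to 0.33 (without WT-A 1). With 4 libraries a group, and 2 in WT-A once the pair is left out, the width of the intervals limits what can be seen.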
